A study of Homo sapiens with 6 samples.

Results

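Phosphatidylserine and phosphatidylethanolamine sit mostly in the cytosolic leaflet of the plasma membrane. Flippases of the P4-ATPase family use ATP to carry them inward, and most of these enzymes need the subunit TMEM30A (CDC50A) to leave the endoplasmic reticulum. Scramblases let phospholipids cross in both directions once they are switched on by calcium or by caspases, which brings phosphatidylserine to the cell surface, where it is read as an "eat me" or clotting signal. In all, 6 genes of this machinery were listed by name: the scramblase genes ANO6, XKR8, PLSCR1 and PLSCR3, the flippase gene ATP11A and TMEM30A. Of these 6 genes, 5 were found by symbol among the 13002 genes of both expression tables. PLSCR3 was not analysed here.

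The cells were of OCI-AML2, a human cell line established from acute myeloid leukaemia, which the labels describe as an engineered leukaemic stem cell line. They were infected with lentivirus carrying a control hairpin or 1 of 2 hairpins against TAZ, the gene of the cardiolipin remodelling enzyme tafazzin, and all groups were then kept in puromycin (2.0 µg/mL) for 3 days. Total RNA was sequenced in 6 libraries, A and B of each of 3 groups called control, shRNA1 and shRNA2. The control is a scramble hairpin in the labels, while the column names of the tables carry GFP. The title of the series names the question, which is how tafazzin bears on phosphatidylethanolamine and phosphatidylserine and on cell state. Values are RPKM, reads per kilobase of gene scaled by library depth, so levels can be set side by side between genes. Nothing in the labels tells whether A and B came from separate cultures, and the p-values below therefore cover the spread of these libraries alone, possibly a technical one.

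The libraries held 18820252 to 20980538 reads in the listed genes. The RPKM of TAZ were 11.3 and 11.9 with the control hairpin, 4.02 and 4.10 with shRNA1 and 1.47 and 2.13 with shRNA2. It fell by 1.41 (SE 0.13, limma adjusted p = 0.00205) and by 2.41 (SE 0.18, limma adjusted p = 0.00245) on the log2 scale. Of the markers listed for the myeloid label, SPI1 (117 to 145 RPKM), CEBPA (103 to 147 RPKM) and CD33 (19.7 to 36.6 RPKM) were expressed. On the same list ITGAM was low at 0.291 to 1.27 RPKM, and KIT, also a stem cell marker, stayed at or under 0.149 RPKM. Of 12 myeloid markers 10 were in the tables and 8 were tested. Of these 8, 6 rose with shRNA1 and 3 with shRNA2, beside 9.99% and 8.12% of all genes tested. LYZ (lysozyme) moved most, from 676 and 786 RPKM in the controls to 3490 to 5240 RPKM with the hairpins. The B cell markers CD79A and PAX5 and the T cell marker CD3D were all under 1 RPKM. Of 4 platelet markers 2 were in the tables: ITGA2B was at or under 0.171 RPKM, and GP9 was at 6.06 and 4.71 RPKM in the controls, 1.92 and 1.38 with shRNA1 and 4.44 and 3.60 with shRNA2. GP9 fell with shRNA1 by 1.45 on the log2 scale (limma adjusted p = 0.00535) and was higher with shRNA2 than with shRNA1 by 1.08 (0.0113). In bulk RNA, a change in the share of cells of one kind and a change in RNA per cell cannot be told apart, and the part of the marker changes in the results below was not tested.

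The promoter of PLSCR1, the scramblase family gene known as an interferon-induced gene, is shown because interferon stimulated genes are set beside PLSCR1 in the results. It is taken from RefSeq (GRCh38.p14, chr3:146544608-146544857, minus strand, the 250 bases before the upstream of its 2 annotated starts), 5′ to 3′. Capitals mark GAAANNGAAA, the core of the element through which interferon acts on many genes.

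PLSCR1: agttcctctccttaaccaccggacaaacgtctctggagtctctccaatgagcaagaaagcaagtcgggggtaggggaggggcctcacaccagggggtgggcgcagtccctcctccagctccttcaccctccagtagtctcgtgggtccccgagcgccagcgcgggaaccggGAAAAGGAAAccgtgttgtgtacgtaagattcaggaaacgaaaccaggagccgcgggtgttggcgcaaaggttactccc

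The pattern starts 79 bases before this start. GAAANNGAAA was searched on both strands of 300-base windows around 35116 RefSeq starts and was found in 1255 of them (3.57%), or in 1195 of 27305 genes (4.38%). Windows were matched for 4 members, and of these PLSCR1 held the pattern while the windows of ANO6, XKR8 and ATP11A did not. A match is a description of letters, not a site of binding.

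At baseline the genes spanned a wide range. In the control libraries TMEM30A averaged 83.5 ± 21.6 RPKM (SD, n = 2), a level above that of 92.7% of the listed genes. PLSCR1 followed at 28.5 ± 3.65 RPKM, ANO6 at 6.0 ± 1.11, XKR8 at 3.44 ± 0.338 and ATP11A at 3.04 ± 0.768 RPKM (SD, n = 2 each). The control values of XKR8 and ATP11A overlapped, so their order is not set by these libraries, and the other neighbours were separate. With shRNA1 both libraries had more ATP11A than XKR8 RPKM, and with shRNA2 both had less. The highest library exceeded the lowest by 2.41 times for ANO6, 2.32 for TMEM30A, 1.91 for ATP11A, 1.64 for PLSCR1 and 1.62 for XKR8. All 5 passed the filter of a mean of 1 RPKM over the libraries of a fit.

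**Figure D1:**
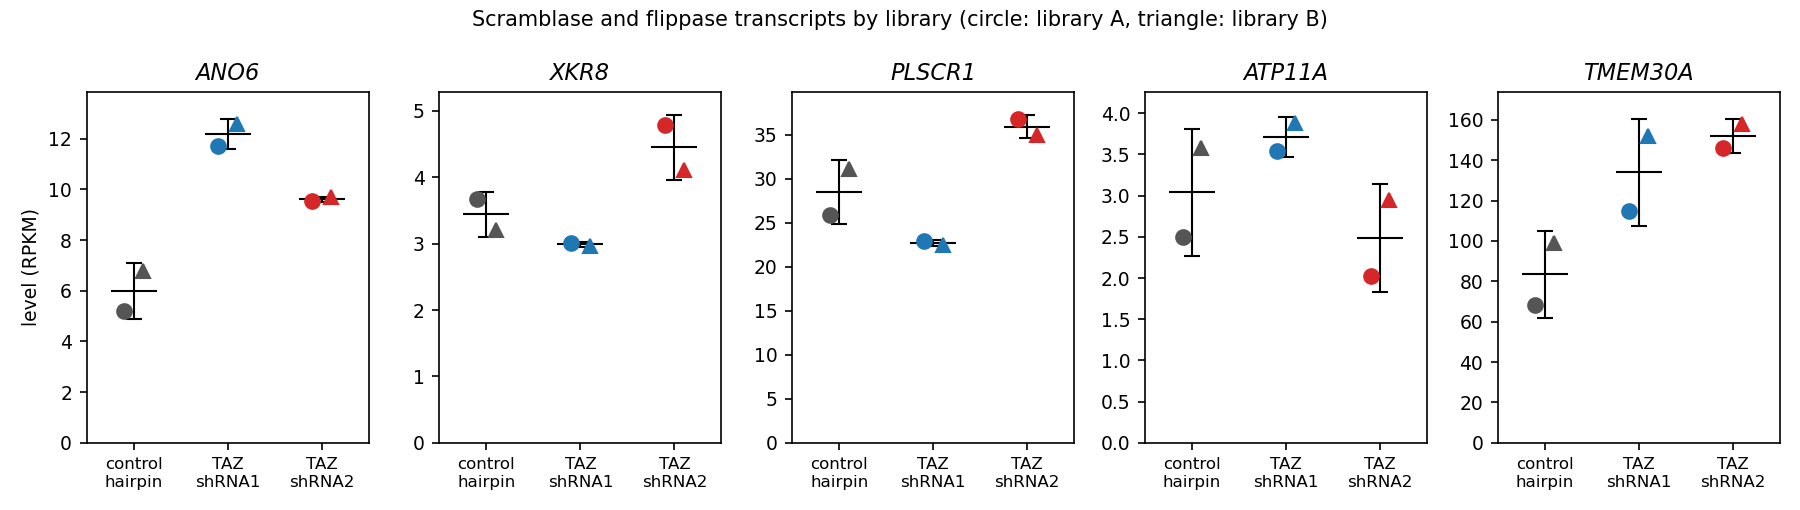
RPKM of the 5 genes in each of the 6 libraries, by group, on linear axes from 0, with the group mean and its SD (n = 2) in black. ANO6 and TMEM30A lie higher in both hairpin groups than in the control, while XKR8 and PLSCR1 are lowest with shRNA1 and highest with shRNA2.

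ANO6 (TMEM16F, gene ID 196527) encodes the calcium-activated scramblase that exposes phosphatidylserine on activated platelets. Control A held 5.22 RPKM (576 reads) and control B 6.79 RPKM (849 reads), while shRNA1 gave 11.7 and 12.6 RPKM and shRNA2 9.55 and 9.69 RPKM. Every hairpin library was above both controls, and both shRNA2 libraries lay below both shRNA1 libraries. The mean was 2.03-fold that of the control with shRNA1, a rise of 0.97 on the log2(RPKM + 0.5) scale (SE 0.16, 95% interval 0.61 to 1.34, limma adjusted p = 0.00930). With shRNA2 it was 1.60-fold, a log2 rise of 0.65 (SE 0.17, interval 0.26 to 1.04, limma adjusted p = 0.0395). The shRNA1 call held under all 14 alternatives of processing or left-out library. The shRNA2 call was lost with no filter on low values (limma adjusted p = 0.0561), without control A (0.113, log2 difference 0.47), without shRNA2 A (0.0996) and without shRNA2 B (0.144). The difference between the hairpins did not pass, at -0.32 (SE 0.15, interval -0.65 to 0.01, limma adjusted p = 0.202).

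XKR8 (gene ID 55113) encodes the scramblase that caspases switch on in dying cells. Control A and B gave 3.68 and 3.20 RPKM, shRNA1 3.01 and 2.96 and shRNA2 4.79 and 4.11 RPKM, on 134 to 201 reads a library. The shRNA1 libraries were the lowest and the shRNA2 libraries the highest, with no overlap. Neither comparison with the control passed, at a log2 difference of -0.17 (SE 0.15, interval -0.52 to 0.18, limma adjusted p = 0.434) for shRNA1 and 0.33 (SE 0.17, interval -0.06 to 0.72, limma adjusted p = 0.219) for shRNA2. Between the hairpins the mean with shRNA2 was 1.49-fold that with shRNA1, and the log2 difference of 0.50 (SE 0.15, interval 0.17 to 0.84) had a limma adjusted p of 0.0661. It passed when a trend over gene length was removed (limma adjusted p = 0.0298) and when control A (0.0453) or control B (0.0440) was left out, the controls entering that fit through the estimate of spread.

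PLSCR1 (gene ID 5359) encodes a calcium-binding membrane protein whose scrambling activity was first described in vitro and which is also known for roles in antiviral responses. It measured 25.9 and 31.1 RPKM in the controls, 22.9 and 22.5 with shRNA1 and 36.8 and 35.0 RPKM with shRNA2. The hairpin groups thus lay on opposite sides of the controls, with no overlap between any of the groups. Against the control neither side passed, at -0.32 for shRNA1 (SE 0.13, interval -0.62 to -0.01, limma adjusted p = 0.124) and 0.33 for shRNA2 (SE 0.15, interval -0.02 to 0.68, limma adjusted p = 0.172) on the log2 scale. Without control A the shRNA1 difference passed, at -0.45 (limma adjusted p = 0.0102). The direct comparison of the hairpins passed: PLSCR1 was higher with shRNA2 than with shRNA1 by 0.65 (SE 0.13, interval 0.36 to 0.94, limma adjusted p = 0.0165), or 1.58-fold. With any 1 of the 4 hairpin libraries left out that call was lost, the difference staying at 0.61 to 0.68 and the limma adjusted p running from 0.0608 to 0.147.

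In the authors' deposited table both PLSCR1 differences are below an FDR of 0.05, with a log2 fold change of -0.33 (FDR 0.0322) for shRNA1 and 0.34 (FDR 0.0237) for shRNA2. At that cutoff the authors' deposited table calls 35.9% of genes with shRNA1 and 38.8% with shRNA2, more than the limma fits used here. The authors' deposited table also lists TMEM30A at 0.68 (FDR 1.39e-05) and 0.90 (FDR 4.88e-09) and ANO6 at 1.02 (FDR 3.5e-13) and 0.70 (FDR 1.42e-06). In the same table XKR8 and ATP11A stay above an FDR of 0.05 with both hairpins.

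ATP11A (gene ID 23250) encodes a plasma membrane flippase of phosphatidylserine and phosphatidylethanolamine that caspases inactivate. Its RPKM were 2.50 in control A, 3.58 in control B, 3.54 and 3.88 with shRNA1 and 2.03 and 2.95 RPKM with shRNA2. Both hairpin groups overlapped the control, while both shRNA2 libraries were below both shRNA1 libraries. The log2 differences were 0.27 for shRNA1 (SE 0.19, interval -0.17 to 0.70, limma adjusted p = 0.336) and -0.24 for shRNA2 (SE 0.23, interval -0.78 to 0.30, limma adjusted p = 0.497). Without control B the first was 0.49, and without control A it was 0.04. With a trend over gene length removed it was 0.06 (limma adjusted p = 0.794). Between hairpins the difference was -0.51 (SE 0.21, interval -0.98 to -0.04, limma adjusted p = 0.161).

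TMEM30A (gene ID 55754) measured 68.2 RPKM in control A, 98.8 in control B, 115 and 152 with shRNA1 and 146 and 158 RPKM with shRNA2. All 4 hairpin libraries were above both controls, and the hairpin groups overlapped each other. With shRNA2 the mean was 1.82-fold that of the control, a log2 rise of 0.88 (SE 0.20, interval 0.41 to 1.35, limma adjusted p = 0.0289). That call was lost without control A (0.62, limma adjusted p = 0.115) and without shRNA2 B (0.82, limma adjusted p = 0.0548). With shRNA1 the mean was 1.60-fold that of the control, and the log2 difference of 0.69 (SE 0.21, interval 0.20 to 1.17) missed the threshold with a limma adjusted p of 0.0591. It passed with control A left out (0.42, limma adjusted p = 0.0202), with control B left out (0.95, 5.65e-05) and with shRNA1 A left out (0.89, 0.0399), but not with shRNA1 B left out (0.48, 0.329). With 1 control library left, here and for ANO6, PLSCR1 and ATP11A, the lone control is assumed to vary like the hairpin pair. In these shRNA1 fits 3298 and 4397 genes passed in place of 1971, so passing there says little. The hairpins differed by 0.20 (SE 0.20, interval -0.26 to 0.66, limma adjusted p = 0.591).

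**Figure D2:**
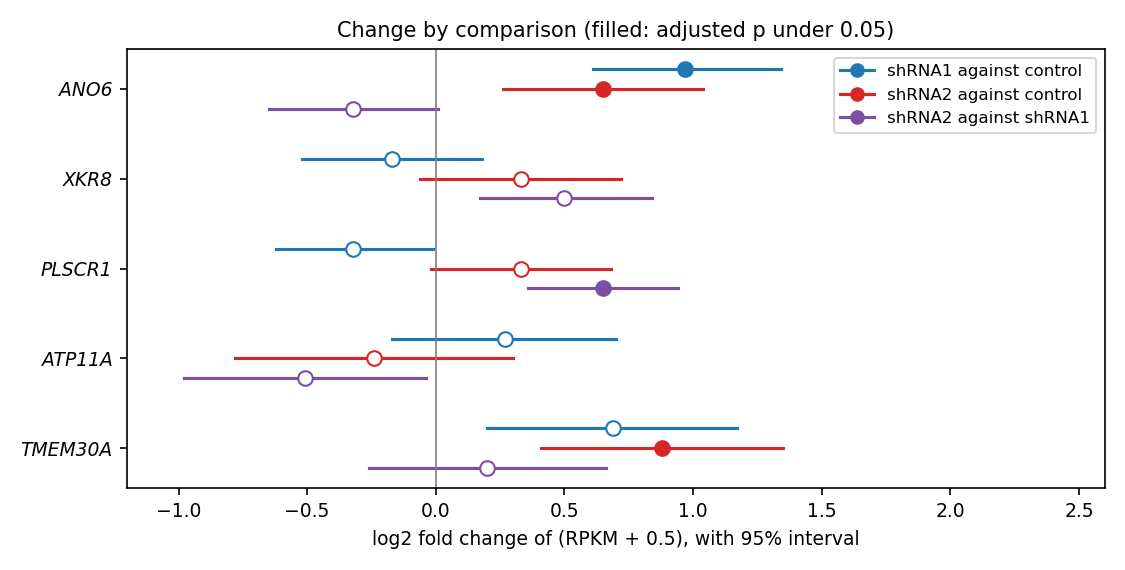
Difference in log2(RPKM + 0.5) of each gene for shRNA1 against control, shRNA2 against control and shRNA2 against shRNA1, with 95% intervals from limma. ANO6 passed the threshold against the control with both hairpins, TMEM30A with shRNA2, and PLSCR1 between the hairpins.

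Read as counts, 1 of the 5 genes rose with shRNA1, beside 18.6% of all 10613 genes tested (9.99% higher and 8.58% lower). With shRNA2 2 rose, beside 15.7% of 10659 genes (8.12% higher and 7.61% lower). Between the hairpins 1 was higher with shRNA2, beside 10.9% of 10660 genes (4.78% higher and 6.10% lower). The groups did not overlap for 4 of the 5 genes in each comparison, against 66.0%, 62.1% and 58.6% of all genes. With shRNA1 2 lay above the control and 2 below (33.5% and 32.5% of all genes), with shRNA2 4 lay above (31.0%, and 31.1% below), and between the hairpins 2 lay above and 2 below (27.4% and 31.2%). With 5 genes these shares are no result about the set. None of the 5 was called lower in any of the 3 limma comparisons, where 1, 0 and 1 were lower at an unadjusted p under 0.05 and limma-voom on recovered reads called 0 lower. The medians of the 5 log2 differences were 0.27, 0.33 and 0.20, beside 0.00, 0.00 and -0.01 over all genes. Both comparisons with the control use the same 2 control libraries. For a single gene, an exact two-sided permutation test of 2 libraries against 2 cannot go below p = 0.333.

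The control libraries differed from each other more than counting allows for 4 of the 5 genes. TMEM30A was 1.45-fold higher in control B than in A, a log2 gap of 0.53 (95% counting interval 0.49 to 0.58), and 8.36% of 10660 genes had a larger gap. The gaps of ATP11A, ANO6 and PLSCR1 were 0.52 (0.34 to 0.70), 0.38 (0.23 to 0.53) and 0.26 (0.15 to 0.38) on the same log2 scale, B above A in each. Larger control gaps were seen in 13.0%, 22.7% and 37.0% of genes. XKR8 was within counting error in all 3 groups. With shRNA2 the gap of ATP11A was 0.54 (0.35 to 0.74), again with B above A, and 9.67% of genes had a larger gap. TMEM30A was also higher in B with shRNA1, by 0.41 (0.37 to 0.44), and 4.61% of genes had a larger gap. With shRNA2 the gap of TMEM30A was 0.12 (0.08 to 0.15), B above A, and 65.7% of genes had a larger gap. Of 15 gaps, 7 were beyond counting error, and these intervals cover counting error only. The share of all genes beyond counting error was not computed, so these counts are no result about the 5 genes.

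Ratios within a library do not depend on how libraries were scaled. The ratio of ANO6 to XKR8 RPKM was 1.42 and 2.12 in the controls, 3.90 and 4.24 with shRNA1 and 1.99 and 2.36 with shRNA2. ANO6, of the calcium-activated scramblase, was therefore above the gene of the caspase-activated one in every library, by most with shRNA1, and the shRNA2 range overlapped that of the controls. The ratio of ANO6 to the flippase gene ATP11A was 2.09 and 1.89 in the controls, 3.32 and 3.24 with shRNA1 and 4.71 and 3.28 with shRNA2, so both hairpin groups lay above the controls.

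TMEM30A was also set against the enzymes it serves. The RPKM of the 9 P4-ATPase genes in the tables other than ATP9A and ATP9B, which do not need the subunit, were summed. The sum was 49.7 and 59.4 RPKM in the controls, 62.0 and 68.1 with shRNA1 and 64.7 and 70.0 with shRNA2. TMEM30A was 1.37 and 1.66 times this sum in the controls, 1.85 and 2.24 times with shRNA1 and 2.25 and 2.26 times with shRNA2. Subunit transcripts thus outnumbered the summed enzyme transcripts, per length, in all 6 libraries, and more so in each hairpin library than in either control. ATP11A made up 5.03% and 6.04% of the sum in the controls, 5.71% and 5.70% with shRNA1 and 3.14% and 4.22% with shRNA2, where both libraries were below all the others.

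**Figure D3:**
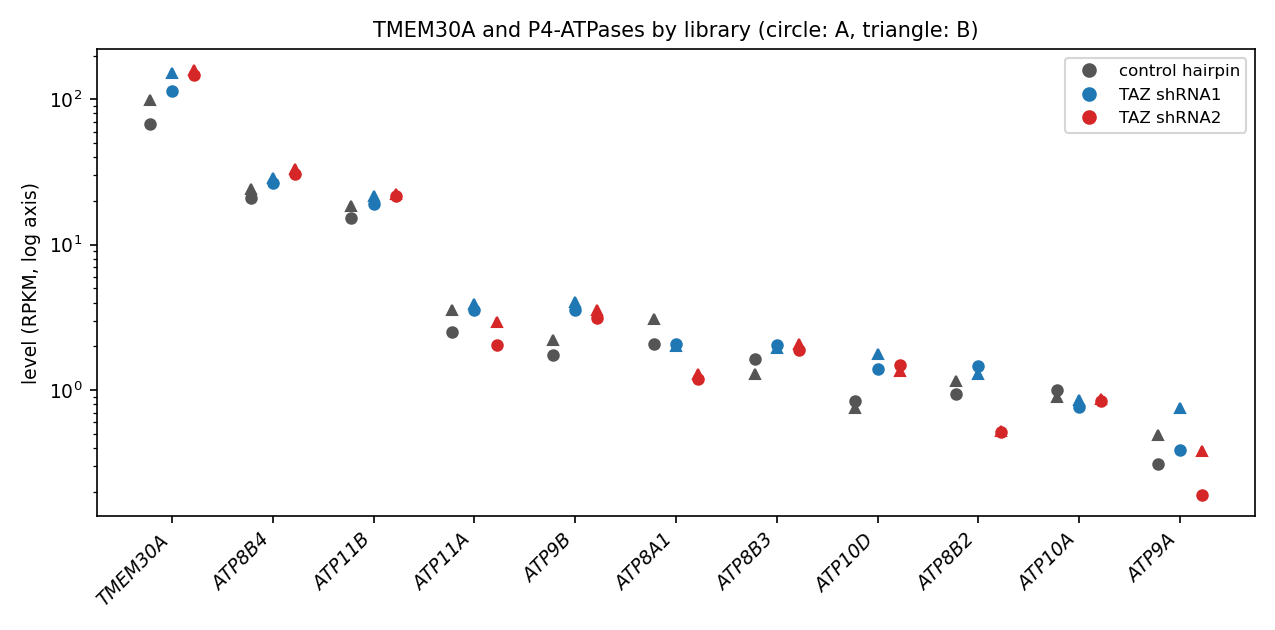
RPKM (log axis) of TMEM30A and of 10 of the 11 P4-ATPase flippase genes in the 6 libraries, ordered by mean level and coloured by group. TMEM30A is above each enzyme gene in every library, ATP8B4 and ATP11B lead the enzymes, and ATP11A lies well below both, at 2.03 to 3.88 RPKM.

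Of 15 other P4-ATPase and CDC50 genes listed, 10 were in the tables. ATP8B4 was the most abundant, at 20.9 and 24.0 RPKM in the controls, 26.5 and 28.8 with shRNA1 and 30.6 and 33.3 with shRNA2, and its log2 differences of 0.30 and 0.50 did not pass (limma adjusted p = 0.133 and 0.0536). ATP11B, a relative of ATP11A, ran from 15.3 to 22.4 RPKM. With shRNA1, 2 of 8 tested rose, beside 9.99% of all genes, with a median log2 difference of 0.29. These were ATP9B (0.80, limma adjusted p = 0.0210), a Golgi enzyme, and ATP10D (0.68, 0.0393), which passed the filter through its hairpin level alone. With shRNA2, 0 of 7 rose in limma and 1 fell (8.12% and 7.61% of all genes), with a median of 0.38. At an unadjusted p under 0.05, 4 of the 7 were higher, and limma-voom called 3 higher. The gene that fell was ATP8A1, a phosphatidylserine flippase, which went from 2.07 and 3.08 RPKM to 1.19 and 1.28 (log2 difference -0.81, limma adjusted p = 0.0451). The limma call of ATP9B was lost without shRNA1 A (0.0647) or B (0.167), that of ATP10D without shRNA1 A (0.105) or with the length trend removed (0.0996), and that of ATP8A1 without control B (0.157), shRNA2 A (0.0963) or shRNA2 B (0.0940).

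Of 28 other scramblases and scramblase partners listed, 14 were in the tables and 11 were tested. With shRNA1 0 of these rose or fell in limma or limma-voom (median log2 difference 0.11), beside 18.6% of all genes called in limma. At an unadjusted p under 0.05, 1 of these was lower. With shRNA2 3 rose, 1 fell and 7 did not pass (median 0.18), beside 15.7% of all genes called. NPTN (neuroplastin), which like BSG (basigin) escorts XKR8 to the surface, measured 44.9 and 46.9 RPKM in the controls, 45.9 and 45.1 with shRNA1 and 84.4 and 73.0 with shRNA2. Both shRNA2 libraries stood apart from the other 4, with a log2 rise of 0.77 over the control (SE 0.15, limma adjusted p = 0.0173, and 0.0512 without shRNA2 A). BSG itself, the most abundant of the list at 112 to 135 RPKM, gave log2 differences of 0.13 and 0.11 that did not pass (limma adjusted p = 0.463 and 0.680).

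ATG9A, the scramblase of autophagosome formation, rose with shRNA2 from 4.91 and 4.54 to 9.03 and 9.13 RPKM (log2 difference 0.87, limma adjusted p = 0.0104), and this call held with each library left out. TMEM63A, of the family related to TMEM16, rose by 0.78 (limma adjusted p = 0.0277, lost when either shRNA2 library was left out). ANO7, a relative of ANO6, fell by 0.94 on the log2 scale (limma adjusted p = 0.0339, and 0.0925 without shRNA2 A). ANO9, too low to be tested, was at 0.428 and 0.343 RPKM in the controls and 0.0337 to 0.0537 RPKM in the hairpin libraries.

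Apoptotic caspases, which switch on XKR8 and inactivate ATP11A, were all in the tables. Of the 5 caspase genes 0 rose or fell with shRNA1 in limma or limma-voom (median 0.18), and 2 were higher at an unadjusted p under 0.05. With shRNA2 1 fell (median 0.15). Over all genes, limma called 18.6% with shRNA1 and 15.7% with shRNA2. CASP6 fell from 11.1 and 9.59 to 5.98 and 5.12 RPKM (log2 difference -0.84, limma adjusted p = 0.0155, and 0.0692 without shRNA2 B). Of the ABC transporters that export phospholipids, 7 of 8 were in the tables, and none of the 3 tested with shRNA1 or the 4 tested with shRNA2 passed in limma (medians 0.17 and -0.07). At an unadjusted p under 0.05 there were 0 and 1, and limma-voom called 0 and 1. ABCC1 was the most abundant of them, at 5.35 to 7.28 RPKM.

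Enzymes that make the lipids these proteins move were tested in the same fits. Of 7 genes of phosphatidylserine and phosphatidylethanolamine synthesis, 2 rose and 1 fell with shRNA1 (median log2 difference 0.39), beside 18.6% of all genes called. ETNK1, an ethanolamine kinase, rose by 0.61 (limma adjusted p = 0.0232) and EPT1, an ethanolamine phosphotransferase, by 0.59 (0.0303, and a difference of 0.39 once a trend over gene length was removed). CEPT1, a choline and ethanolamine phosphotransferase, fell by 0.56 on the log2 scale (limma adjusted p = 0.0301). All 3 limma calls were lost when either shRNA1 library was left out, and that of ETNK1 also with the length trend removed (0.0989). With shRNA2 0 of 7 passed in limma or limma-voom (median 0.02), beside 15.7% of all genes in limma. At an unadjusted p under 0.05, 1 of the 7 was lower. PTDSS1, a phosphatidylserine synthase and the most abundant of the list, was at 122 and 148 RPKM in the controls, 175 and 177 with shRNA1 and 137 and 135 with shRNA2.

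Phosphatidylserine reaches the plasma membrane partly by exchange against the lipid PI4P. Of 12 genes of this exchange and of transfer to mitochondria, 4 rose and 1 fell with shRNA1 (median 0.23), and 1 rose with shRNA2 (median 0.16). With shRNA2 5 were higher at an unadjusted p under 0.05, and limma-voom called 4 higher with either hairpin. Over all genes, limma called 18.6% with shRNA1 and 15.7% with shRNA2. OSBPL5, which exchanges phosphatidylserine for PI4P, measured 4.24 and 4.33 RPKM in the controls, 8.35 and 8.81 with shRNA1 and 3.68 and 4.80 with shRNA2. Both shRNA1 libraries stood apart, with a log2 rise of 0.92 (SE 0.13, limma adjusted p = 0.00691, and 0.0563 without shRNA1 B). PI4KA, the kinase that makes PI4P at the plasma membrane, rose with shRNA1 by 0.78 (limma adjusted p = 0.0179, and 0.141 without shRNA1 B) and with shRNA2 by 0.74 (0.0363, lost with no filter on low values and without control A or shRNA2 B).

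Its scaffold TTC7A rose with shRNA1 by 0.86 (limma adjusted p = 0.00723, and 0.0631 without shRNA1 B). SACM1L, the phosphatase of PI4P, rose by 0.61 (0.0173) and PRELID1, a mitochondrial lipid transfer protein and the most abundant of the list, fell by 0.59 on the log2 scale (0.0466). The limma calls of SACM1L and PRELID1 were lost when either shRNA1 library was left out, and that of PRELID1 also with no filter, in 1 fit of 6 libraries and with the length trend removed (-0.37).

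**Figure D4:**
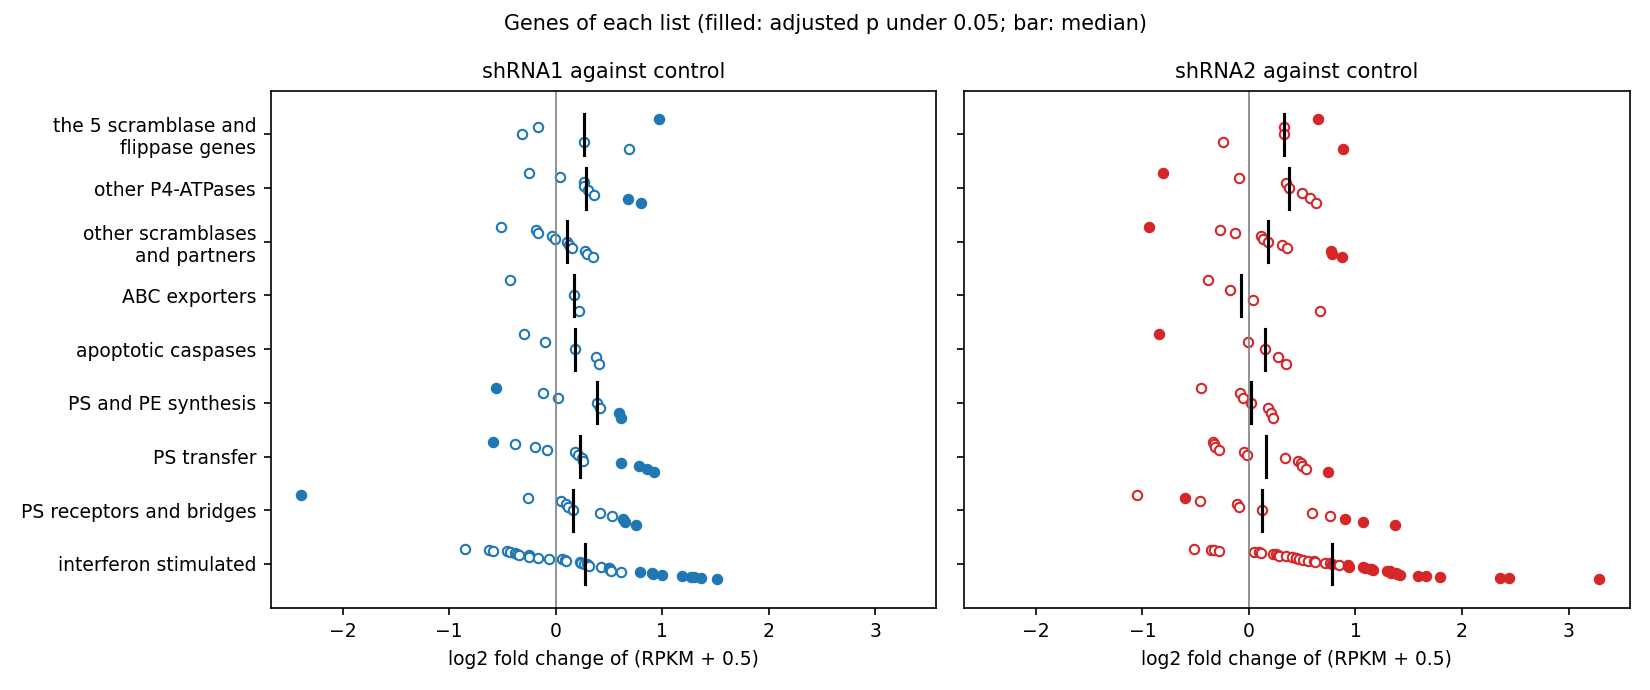
Difference in log2(RPKM + 0.5) of the tested genes of each related list, for shRNA1 and shRNA2 against the control, with the 5 genes on the top line, a bar at each list's median and filled points for a limma adjusted p under 0.05 (PS and PE, phosphatidylserine and phosphatidylethanolamine). The interferon stimulated genes have medians of 0.28 and 0.78, and the other lists lie between -0.07 and 0.39. Of the interferon genes tested, 2 of 38 with shRNA1 and 7 of 45 with shRNA2 had a control mean under 1 RPKM. These passed the filter through their hairpin level, so the medians of this list lean upward.

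Since PLSCR1 is known as an interferon-induced gene, 50 other interferon stimulated genes were set beside it. Over all genes tested, 9.99% rose with shRNA1, 8.12% rose with shRNA2 and 4.78% were higher with shRNA2 than with shRNA1. With shRNA1 10 of 38 listed genes tested rose (median 0.28), or 9 of 36 without genes whose control mean was under 1 RPKM. Among them were TRIM22, MX2, OAS1, HERC5, SAMD9, IFI27, CMPK2, OAS2 and STAT2, and the 10 had limma log2 differences from 0.50 (STAT2) to 1.51 (TRIM22). Of the 10 calls, 5 were lost with a shRNA1 library left out, namely OAS2 and SAMD9 without B and IFI27, STAT2 and CMPK2 when either was left out, with limma adjusted p up to 0.307. IFI27 was also lost in both limma-voom fits (0.0628 and 0.0561) and in 1 fit of 6 libraries (0.0551), and STAT2 with the length trend removed (0.0704). With shRNA2 22 of 45 rose (median 0.78), or 16 of 38 without the genes low in the control. Beside MX2, OAS1, SAMD9, IFI27, CMPK2, OAS2 and STAT2 these included IFI6, IFITM3, IFITM1, IRF7, LGALS3BP, MX1, OAS3, HERC6, IRF9, BST2, IFI35, PARP9, IFIT1 and SAMD9L. The log2 rises ran from 0.78 (SAMD9L) to 3.29 (IFI27). Of the 22 calls, 5 were lost with shRNA2 B left out: SAMD9L (limma adjusted p = 0.243), IFIT1 (0.139), IRF9 (0.0809), PARP9 (0.0548) and SAMD9 (0.0516). SAMD9L and IFIT1 were also lost without control B and with the length trend removed, and IFIT1 with a pseudocount of 0.1 and with quantile normalization. Between the hairpins 17 of 42 were higher with shRNA2 (median 0.52), or 15 of 39 without genes whose shRNA1 mean was under 1 RPKM. The medians of all 3 comparisons keep the genes left out of the second counts. Of these 17 calls, 13 were lost with 1 hairpin library left out. In limma 0 fell in any of the 3 comparisons, where 4, 1 and 2 were lower at an unadjusted p under 0.05 and limma-voom called 0, 0 and 1 lower.

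PLSCR1 shared the higher level with shRNA2 than with shRNA1. With shRNA1 its value lay below the control. There the listed interferon genes had a median of 0.28, beside 0.00 over all genes, and 25 of 38 tested were higher. Among the 38, OAS1 and HERC6 passed the filter through their shRNA1 level alone. Some of the list were placed as PLSCR1 was, below the control with shRNA1 and above it with shRNA2, among them ISG15, IFIH1, IFIT1 and LGALS3BP. ISG15 and IFIH1 did not pass against the control with either hairpin. IFIT1 (0.93, limma adjusted p = 0.0485) and LGALS3BP (1.39, 0.00627) rose with shRNA2 and were too low to be tested with shRNA1. The control mean of IFIT1 was 0.812 RPKM, so it passed the filter through its shRNA2 level. IFITM2, the most abundant of that list, was at 141 and 115 RPKM in the controls, 108 and 94.6 with shRNA1 and 87.7 and 90.0 with shRNA2, and did not pass in either comparison (limma adjusted p = 0.140 and 0.0717). Of the 50 genes 38 had a RefSeq window, and 26 of those held GAAANNGAAA. The sites below are those of PLSCR1 and of the 5 interferon genes that rose most with shRNA2 and hold the pattern wholly before the start, chosen after their values were seen. They are read 5′ to 3′ from RefSeq on GRCh38.p14, with the pattern in capitals.
PLSCR1 (chr3:146544667-146544696, minus strand): cgggaaccggGAAAAGGAAAccgtgttgtg
IFI27 (chr14:94110631-94110660, plus strand): cggtttcctgGAAAATGAAAcctatctcat
IFI6 (chr1:27672329-27672358, minus strand): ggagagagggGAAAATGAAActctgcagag
IFITM3 (chr11:320893-320922, minus strand): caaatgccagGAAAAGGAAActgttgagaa
IFITM1 (chr11:313990-314019, plus strand): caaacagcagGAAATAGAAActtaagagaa
LGALS3BP (chr17:78979962-78979991, minus strand): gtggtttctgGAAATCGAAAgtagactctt

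The PLSCR1 and IFITM3 patterns have the same letters, GAAAAGGAAA, and IFI27 and IFI6 share GAAAATGAAA. The log2 differences of these genes with shRNA2 were 0.33 for PLSCR1, 3.29 for IFI27, 2.44 for IFI6, 1.79 for IFITM3, 1.66 for IFITM1 and 1.39 for LGALS3BP. Since the other 5 were picked for their rise, the order of these values is set by that choice.

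For each gene the 3 genes of most similar pattern were found among 10659 others, by the root mean square difference of centred log2(RPKM + 0.5) over the 6 libraries. Nearest to ANO6 were RASAL2 (0.041), EDEM3 (0.053) and IDE (0.062), and nearest to TMEM30A were HERC3 (0.059), WASL (0.079) and WDFY1 (0.084). XKR8 was followed most closely by SCLT1 (0.041), H2AFV (0.046) and C4orf33 (0.046). For PLSCR1 they were POMZP3 (0.024), C9orf64 (0.055) and WSB2 (0.067), none of which is on the interferon list. For ATP11A they were FAM208B (0.045), ATG14 (0.055) and JMY (0.059). No member was among the nearest 3 of another.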

How the data were processed

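OCI-AML2 RNA was sequenced in 6 libraries, with 2 per group. The authors deposited 2 tables of RPKM, each with their log2 fold changes, a likelihood-ratio score, p-values and FDR per the file headers. The submitters' processing notes name the genome hg19, TopHat2 2.0.11 and Trim Galore 0.4.0, and further HTSeq 0.6.1p2, DESeq 1.18.0 and edgeR 3.8.6. The annotation and strand handling were not given in the sources used here, so reads of overlapping genes on the other strand or of near-identical copies may be mixed. Of 13004 genes per table, 13002 were kept after 2 repeats were dropped, and 21 symbols turned into dates were restored from a RefSeq gene list. Control values were the same in both tables. Low values were whole multiples of 1 read: reads were recovered for 100.0% of genes within 0.05 reads. The RPKM denominators were 0.9947 to 1.0123 times a TMM-scaled total.

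Log2(RPKM + 0.5) of the 4 libraries of a comparison with the control was fitted with limma 3.58.1 (R 4.3.3) over all genes whose mean over the libraries of the fit reached 1 RPKM, with Benjamini-Hochberg adjustment over all of them and a threshold of 0.05. The hairpins were compared in a fit of all 6 libraries. The script was tested on simulated data. Alternatives were other pseudocounts (0.1 and 1), filters, scalings, limma-voom on recovered reads, a length trend, a replicate block, 1 fit of 6 libraries and each library left out. Genes named are the members, TAZ, every gene of the related lists called against the control, the most abundant of each list and the 3 genes nearest to each member. Genes given beyond that rule (myeloid markers, ATP11B, ANO9) were chosen after their values were seen. Some genes that the rule names are not reported here. The members and lists were chosen with earlier results of these data known.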

Additional observations from a re-analysis of the deposited data

Results flagged for a closer look

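The 2 hairpins differed from each other, by the limma test of shRNA2 against shRNA1 over all genes, for PLSCR1 (0.65, limma adjusted p = 0.0165) and for TAZ itself (-1.0, 0.00801). Among the related genes called against the control, NPTN (0.78, limma adjusted p = 0.00721), ATG9A (0.90, 0.00564), TMEM63A (0.68, 0.0285) and ANXA5 (0.80, 0.0129) were higher with shRNA2, all as log2 differences. CASP6 (-0.55, limma adjusted p = 0.0478), OSBPL5 (-0.95, 0.00717), TYRO3 (-1.10, 0.00574) and GAS6 (-0.86, 0.0352) were lower with shRNA2. Each of these 10 calls was lost when 1 of the shRNA1 libraries was left out (shRNA1 B in every case), with the direction kept. Over all genes, too, far fewer passed with a shRNA1 library left out, so these losses are not particular to the 10. The same holds for shRNA1 against the control.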

How the results depend on the processing

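Of 209 values of the 5 genes under an alternative, 183 kept direction and side of the threshold, 15 newly passed, 10 no longer passed and 1 changed sign (TMEM30A between the hairpins, -0.01 without shRNA1 A, up to 0.40 with other libraries left out). The cause was not tested. A filter at 5 RPKM gives no value for XKR8 and ATP11A. TMEM30A with shRNA1 newly passed with limma-voom under TMM (0.69) or library-total scaling (0.72) and in 1 fit of 6 libraries (0.69), and ran from 0.42 to 0.95 with each library left out, passing except without shRNA1 B. With libraries left out PLSCR1 with shRNA1 ran from -0.45 to -0.19 and ATP11A from 0.04 to 0.49. Removing the length trend took the shRNA1 difference from 0.97 to 0.79 for ANO6, from 0.69 to 0.55 for TMEM30A and from 0.27 to 0.06 for ATP11A. With shRNA2 it gave 0.52 for ANO6 and 0.79 for TMEM30A, and both still passed. With shRNA2, ANO6 no longer passed with no filter (0.65) and ran from 0.47 to 0.82 with libraries left out, and TMEM30A from 0.62 to 1.15. Between the hairpins XKR8 newly passed with the length trend removed (0.51) and ran from 0.40 to 0.60, PLSCR1 from 0.61 to 0.68 and TAZ, no longer called without shRNA1 A or B, from -1.21 to -0.80. Genes called were 1971 with shRNA1 (461 to 4397 with libraries left out), 1676 with shRNA2 (823 to 2010, 2515 with the length trend removed, 2584 in 1 fit) and 1160 between hairpins (155 to 1622, 1801 with the length trend removed). Genes of the related lists called were 24 (5 to 47), 33 (23 to 36) and 25 (5 to 37), and 14, 16 and 13 with a filter at 5 RPKM.

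A and B are letters shared by the groups, and no label says that they pair libraries, so the main fits took no pairing. The differences of A and B nonetheless correlated at 0.26, 0.42 and 0.37 between groups, and the cause was not tested. With a replicate block, 3780, 4170 and 2396 genes and 44, 62 and 43 listed genes were called. Under that block PLSCR1 (-0.32, limma adjusted p = 0.0476) and TMEM30A (0.69, 0.000133) with shRNA1 passed, as did XKR8 (0.50, 0.0188) and ATP11A (-0.51, 0.0269) between hairpins. Depth limits XKR8, with 134 to 201 reads a library.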

Other observations

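Other listed genes read phosphatidylserine on the surface of a cell. Of 24 receptors, bridging proteins and annexins listed 19 were in the tables and 11 were tested with each hairpin. With shRNA1 3 rose, 1 fell and 7 did not pass (median log2 difference 0.16), and with shRNA2 also 3 rose, 1 fell and 7 did not pass (median 0.12), beside 18.6% and 15.7% of all genes called. ANXA5, the annexin used to stain exposed phosphatidylserine and the most abundant of the list, was at 121 and 102 RPKM in the controls, 122 and 116 with shRNA1 and 227 and 191 with shRNA2. It rose with shRNA2 by 0.90 on the log2 scale (limma adjusted p = 0.0183, and 0.0552 without control B). ITGAV, an integrin subunit, rose with shRNA2 by 1.07 (limma adjusted p = 0.0163) and kept its call with each library left out. MERTK, a receptor kinase of efferocytosis, was at 0.370 and 0.286 RPKM in the controls and 2.10 and 1.26 with shRNA2, so it passed the filter through that group alone (log2 difference 1.37, limma adjusted p = 0.0154, and 2.31 with limma-voom). ELMO1, an engulfment adaptor, fell with shRNA2 by 0.60 on the log2 scale (limma adjusted p = 0.0469), a call lost without control B or either shRNA2 library.

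With shRNA1 the receptor gene CD300LF rose by 0.75 (limma adjusted p = 0.0140), TYRO3 by 0.63 (0.0286) and GAS6, the ligand of TYRO3 and MERTK, by 0.65 (0.0338) on the log2 scale. Each of these 3 limma calls was lost when either shRNA1 library was left out, and GAS6 passed the filter through its shRNA1 level alone. CD300A, an inhibitory phosphatidylserine receptor, fell with shRNA1 (log2 difference -2.39, limma adjusted p = 0.0270). Its control libraries stood far apart at 47.8 and 11.3 RPKM, against 3.84 and 4.31 with shRNA1, and without control A the difference was -1.37.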
